A study of Mus musculus with 18 samples.

Results

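The nuclear subunits of complex I were followed in nascent RNA from 18 libraries of sorted mouse fetal liver cells. Members were the genes of the deposited count table whose mouse symbol begins with Nduf, one of the letters a, b, c, s or v and a number, without the assembly factors (Ndufaf) and without symbols that carry -ps. The rule found 38 of the 54232 gene rows in the table, for 37 symbols, because Ndufb8 has 2 rows. Of the 38 rows, 37 passed the filter on low counts and were tested, and Ndufa13 was listed at 0 in all 18 libraries. Cells came from C57BL/6 embryos at e12.5 to e13.5, rested 6 h after the sort, and were given 500 µM 4-thiouridine (4sU) for 45 min. RNA labelled in that time was purified and sequenced, and carry-over of older RNA was not tested. The 5 erythroid populations were lineage-negative and were sorted on CD71, the transferrin receptor, and Ter119, a late erythroid surface antigen. S0-Low cells were titled CD71 low, listed as CD71- and without Ter119, S0-Medium had medium CD71, S1 had high CD71 without Ter119, S2 had high CD71 with medium Ter119, and S3 was high for both. The study places stem and early erythroid progenitors in S0-Low, early and late colony-forming progenitors in S0-Medium and S1, and maturing cells in S2 and S3. Lin+ cells, which carried lineage markers, were the sixth group. All animals were of one wild-type strain with no other treatment, and each group held 3 libraries. The study describes 3 biological replicates. The labels do not say whether these came from separate litters, so p-values measure the spread between libraries, which may be partly technical.

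Complex I, or NADH dehydrogenase, takes electrons from NADH in the mitochondrial matrix, passes them to ubiquinone and pumps protons across the inner membrane. Its matrix arm holds the flavin and the iron-sulphur clusters, and its membrane arm holds the proton channels. The core subunits shared with bacteria do the catalysis: those of the matrix arm are encoded in the nucleus, and those of the membrane arm (mt-Nd) in mitochondrial DNA. Accessory subunits, all nuclear, surround the core and are needed to build and hold the complex. Red cells lose their mitochondria at the end of maturation, after the nucleated stages, during which mitochondria also make haem.

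Library totals ran from 9452476 to 40567976 counts. Values below are CPM, that is, counts divided by the size of their library, after TMM, a factor per library meant to set the bulk of genes level. The labels were checked against marker genes. Summed over the 9 erythroid markers, the 3 libraries ran from 504 to 1088 CPM in S0-Low and from 29831 to 49066 in S3, and over the 7 stem and progenitor markers from 1018 to 1509 and from 1.61 to 10.8. Lin+ libraries are labelled as erythroblasts but held 276 to 352 CPM of erythroid markers and 3085 to 5636 of the 8 granulocyte and monocyte markers, which summed to 429 to 832 in S0-Low and 0 to 1.26 in S3. In bulk samples fewer cells of a type and less RNA per cell cannot be told apart. The part of these markers in the values below was not tested.

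Promoters were read from RefSeq on GRCm38.p6, in windows from 250 bases before to 50 bases after each start, which matched 32 of the 37 symbols with 34 windows. The motif of NRF1, a factor known for driving genes of the respiratory chain, was searched as GCGCATGCG on both strands. It was in 2 windows (5.88%), those of Ndufa8 and Ndufa11, against 1.75% of all 32851 windows. Both are shown because they are the members that hold this motif. The 150 bases before each start are given 5′ to 3′ on the gene's strand, with the motif in capitals. In Ndufa11 the motif matched on both strands, and the 2 matches overlap.
Ndufa8 (chr2:36049339-36049488, minus strand): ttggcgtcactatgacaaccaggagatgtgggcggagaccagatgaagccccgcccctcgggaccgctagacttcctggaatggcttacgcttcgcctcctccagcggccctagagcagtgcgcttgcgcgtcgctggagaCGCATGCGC
Ndufa11 (chr17:56717612-56717761, plus strand): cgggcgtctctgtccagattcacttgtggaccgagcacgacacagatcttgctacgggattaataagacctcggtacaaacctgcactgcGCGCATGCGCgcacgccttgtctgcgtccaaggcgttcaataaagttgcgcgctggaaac
The ETS motif CCGGAAGT was in 1 member window, that of Ndufs3 (2.94%, against 3.89% of all windows). A motif bound by GATA factors, searched as AGATAAG, was in 0 of the 34 windows and in 3.04% of all windows. CCAAT was in 10 (29.4%, against 37.4%). The median window of the members held 19.5 CpG pairs, and that of all genes 7.

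No member was called between the earliest and the latest erythroid population. In S3 against S0-Low, 0 of 37 members were higher and 0 lower at an edgeR adjusted p under 0.05, while 35.8% of the 16555 tested genes were called, 13.4% higher and 22.4% lower. The members' median log2 fold change was -0.13 and that of all tested genes -0.54. The members' fitted changes ran from -2.24 to 0.96, and 5 of 37 were at least 2-fold, all lower, against 65.5% of all genes. Of the members, Ndufa12, with a negative fitted change, and Ndufa6, with a positive one, came closest (edgeR adjusted p = 0.104 for both). DESeq2, run as an alternative, called 0 higher and 2 lower, against 14.9% and 29.1% of all genes. Few of these genes were measured well enough to show that they held level: the 95% interval lay within 2-fold of no change for 5 of 37 members, and for 4.57% of all genes. The size of the change also rests on the scaling. With library totals in place of TMM, 8 members were lower (37.6% of all genes were), the members' median was -0.95 and that of all genes -1.36. The members' median lay above that of all genes under both scalings, but below it with at least 10 counts in every library compared (-0.40 against -0.10, 28 members tested) and with no filter (-0.19 against -0.08), so its place beside all genes depends on the filter.

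**Figure D1:**
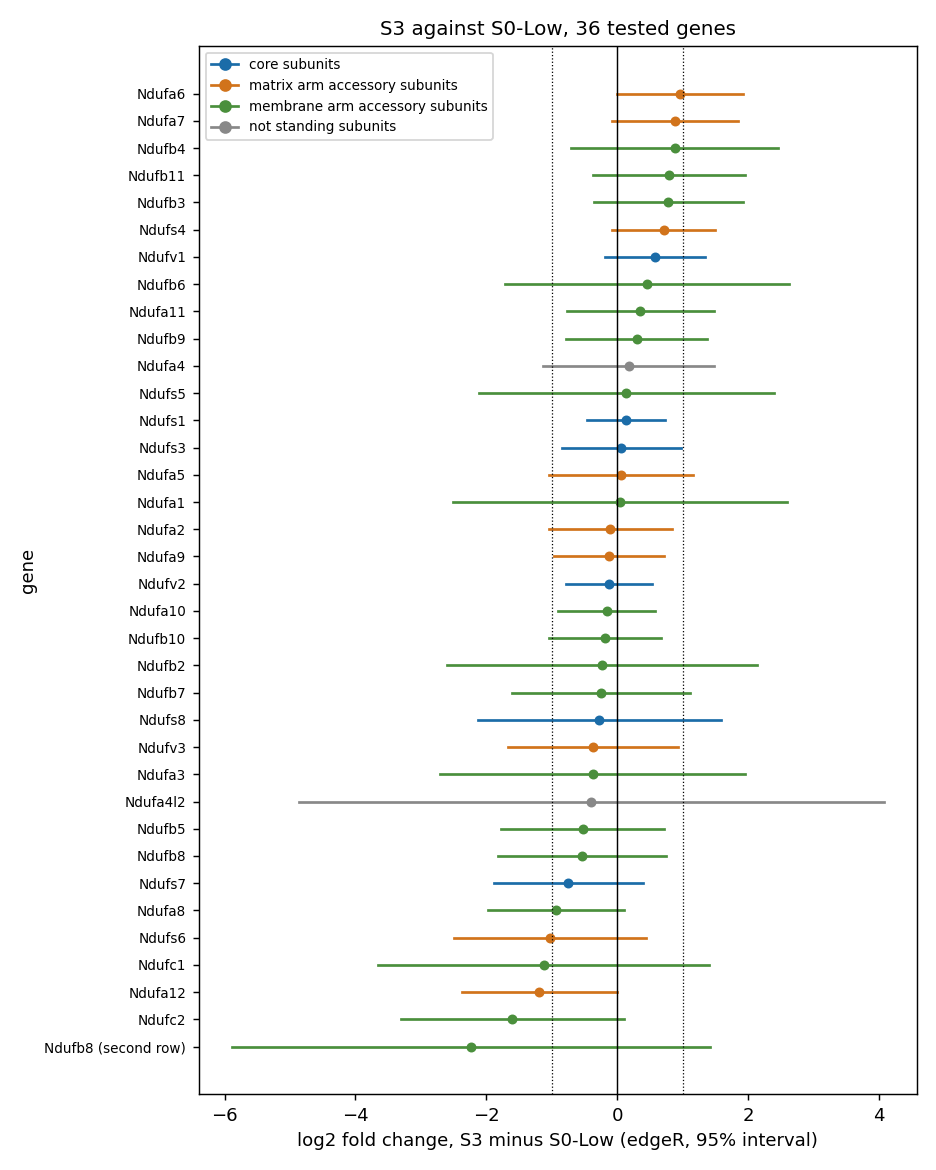
Fitted log2 fold change of 36 of the 37 tested members in S3 minus S0-Low (horizontal axis), with its 95% interval from edgeR and colours by role. Points run from -2.24 to 0.96, dotted lines mark 2-fold, and 2 of the intervals, those of Ndufa12 and Ndufa6, end just short of 0.

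The fitted changes of the 6 core subunits described here ran from -0.74 to 0.58 in S3 against S0-Low, and 0 of 6 passed the test. By RefSeq on GRCm38.p6, Ndufv1 lies at chr19:4007499-4012755, Ndufv2 at chr17:66078795-66101559, Ndufs1 at chr1:63143592-63176822, Ndufs3 at chr2:90894627-90904721, Ndufs7 at chr10:80249105-80256794 and Ndufs8 at chr19:3908863-3912774. Ndufv1 and Ndufv2 make the NADH-oxidising tip, where Ndufv1 carries the flavin and Ndufv2 an iron-sulphur cluster. Ndufv1 measured, in CPM, 66.4, 62 and 33.3 in S0-Low, 52.9, 73.2 and 51.8 in S0-Medium, 85, 87.1 and 75.1 in S1, 108, 106 and 54.5 in S2, 70.4, 109 and 62 in S3 and 57.2, 46.3 and 33.1 in Lin+. Its mean was highest in S2 and lowest in Lin+, and S3 overlapped S0-Low (log2 fold change 0.58 (SE 0.36, edgeR adjusted p = 0.223)). Ndufv2 measured 103, 90.7 and 82.4 in S0-Low, 66.3, 90.3 and 113 in S0-Medium, 93.3, 89.3 and 86.2 in S1, 110.2, 96.6 and 108 in S2, 61.6, 123 and 68.3 in S3 and 85.2, 75 and 61 in Lin+ CPM. Each of the other populations overlapped S0-Low (log2 fold change -0.13 (SE 0.31, edgeR adjusted p = 0.766), 95% interval -0.78 to 0.53).

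Ndufs1, the largest core subunit, which carries iron-sulphur clusters along the electron path, had the highest CPM of the members. Its values were 117, 101 and 109.8 in S0-Low, 112, 143 and 100.3 in S0-Medium, 170.2, 173 and 142 in S1, 166, 154 and 97.7 in S2, 128, 138 and 92.7 in S3 and 91.7, 89.2 and 69.3 in Lin+. All 3 S1 libraries lay above the 3 of S0-Low, as they did for 12.8% of all genes. The change was not called (log2 fold change 0.56 (SE 0.28, edgeR adjusted p = 0.357)), and S3 overlapped S0-Low (95% interval -0.47 to 0.72). Ndufs7, which lies at the site where ubiquinone is reduced, measured 54.9, 52 and 23 in S0-Low, 45.6, 53.5 and 74.1 in S0-Medium, 54.6, 55.3 and 59.3 in S1, 91.3, 67.8 and 24.2 in S2, 11.7, 46.9 and 18.9 in S3 and 50.6, 47.5 and 24.1 in Lin+ CPM. Its S3 values were low in 2 of 3 libraries and overlapped those of S0-Low (log2 fold change -0.74 (SE 0.54, edgeR adjusted p = 0.289)) and of S2 (log2 fold change -1.23 (SE 0.54, edgeR adjusted p = 0.161)).

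Ndufs8, which carries iron-sulphur clusters near the ubiquinone site, measured 41.1, 46.4 and 1.91 in S0-Low, 22.4, 33.2 and 29.1 in S0-Medium, 32, 31.5 and 31.3 in S1, 34.4, 41.6 and 3.67 in S2, 40.04, 23.7 and 10.6 in S3 and 46.6, 36.4 and 24.7 in Lin+ CPM. It was lowest in the third S0-Low and the third S2 library, and its error was wide (log2 fold change -0.27 (SE 0.87, edgeR adjusted p = 0.828)). Ndufs3, a structural core subunit of the matrix arm, measured 41.7, 45.2 and 23.5 in S0-Low, 31.8, 49.3 and 34.8 in S0-Medium, 44.2, 61.1 and 60.6 in S1, 53.5, 74.1 and 57.7 in S2, 49.3, 50.4 and 15.9 in S3 and 23.7, 31 and 30.6 in Lin+ CPM. It was highest in S1 and S2, and its 3 S3 libraries lay below the 3 of S2 without a call (log2 fold change -0.68 (SE 0.43, edgeR adjusted p = 0.329)). Of all genes, 14.2% lay below in this way. Of the 31-base stretches of Ndufs3, 55% also occur in exons of other genes, mainly a pseudogene that holds 152 counts in all. The 3 sharing genes with counts hold 25718 together, beside 25173 for Ndufs3, so its count may depend on how reads were shared out.

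**Figure D2:**
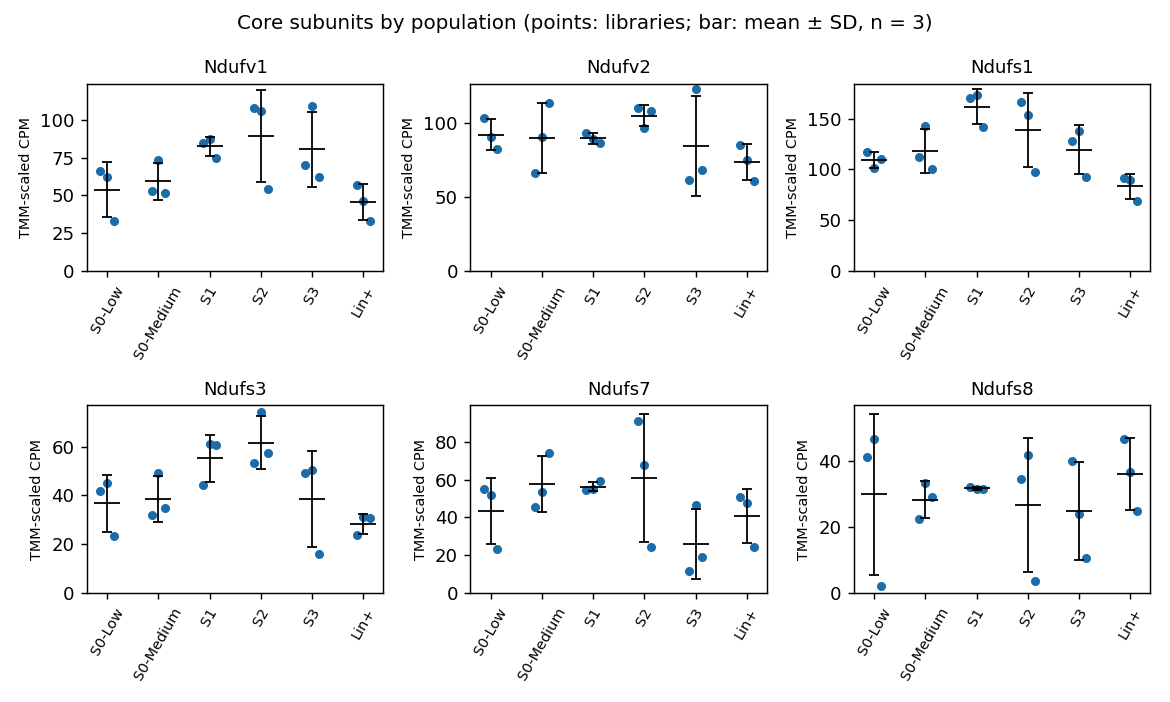
TMM-scaled CPM of 6 core subunits (vertical axis, from 0) in each population, with points for libraries in replicate order and bars for the mean and SD of 3. The Ndufs1 means are 109 in S0-Low, 162 in S1 and 119.6 in S3, and the third S0-Low and S2 libraries are the low points of Ndufs8.

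Among the 9 accessory subunits of the matrix arm, 0 passed the test in S3 against S0-Low, 4 had positive and 5 negative fitted changes, and their median was -0.11. The largest fitted changes pointed both ways. Ndufa6, a LYR-motif subunit that binds the mitochondrial acyl carrier protein, measured 33.7, 32.8 and 16.8 CPM in S0-Low and 34.8, 68.2 and 59.5 in S3, with no overlap (log2 fold change 0.96 (SE 0.45, edgeR adjusted p = 0.104)). Ndufs4, whose loss causes Leigh-like disease in mice, measured 86.3, 50.4 and 43.4 and 123, 103 and 69.1, with overlap (log2 fold change 0.71 (SE 0.37, edgeR adjusted p = 0.145)), and passed only with the replicate number as a block. The fitted change of Ndufa12 was negative. It measured 54.6, 40.7 and 39.2 CPM in S0-Low and 19, 27.4 and 12.6 in S3, with no overlap (log2 fold change -1.19 (SE 0.56, edgeR adjusted p = 0.104)), and passed as lower under DESeq2, library totals, the stricter count filter, the replicate block, and without replicate 3 of every population. Ndufs6, a zinc-binding subunit, measured 30.7, 23.8 and 27.6 in S2 and 1.44, 14.2 and 8.04 in S3 (log2 fold change -1.78 (SE 0.71, edgeR adjusted p = 0.121)).

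Of the accessory subunits of the membrane arm, 19 rows were tested in S3 against S0-Low, 0 passed, 8 had positive and 11 negative changes, and their median was -0.19. Ndufc2 measured 26.1, 24.9 and 43.5 CPM in S0-Low and 19.7, 11.1 and 0.402 in S3, with no overlap (log2 fold change -1.60 (SE 0.80, edgeR adjusted p = 0.128)). Ndufa8, one of the twin-CX9C subunits and a holder of the NRF1 motif above, measured 34.7, 38.7 and 57.7 and 34.5, 26.3 and 7.81, also without overlap (log2 fold change -0.94 (SE 0.49, edgeR adjusted p = 0.144)), and passed as lower under DESeq2, library totals and the stricter count filter. Ndufa11, the other holder of that motif, measured 21.5, 16.6 and 11 and 14.3, 33.5 and 14.9, with overlap (log2 fold change 0.35 (SE 0.53, edgeR adjusted p = 0.624)). In all, the libraries of the groups did not overlap for 1 member higher in S3 (16.6% of all genes were) and for 3 lower (25.9% of all genes): Ndufa6, and Ndufa12, Ndufa8 and Ndufc2.

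Symbols that match the name but not the complex were kept by the rule. Ndufa4, now known as a subunit of cytochrome c oxidase, measured 29.2, 31.7 and 17.3 in S0-Low, 21.4, 23.9 and 26 in S0-Medium, 26.9, 29.4 and 20.5 in S1, 24.1, 28.5 and 11.5 in S2, 5.75, 26.7 and 55.9 in S3 and 20.9, 28.4 and 19.4 in Lin+ CPM. Its S3 libraries spanned the lowest and the highest of its 18 values (log2 fold change 0.18 (SE 0.62, edgeR adjusted p = 0.843)). Ndufa4l2, a relative known for induction by low oxygen, was near the floor, with values of 0.775, 0 and 0 in S0-Low, 0.116, 0.0933 and 0 in S0-Medium, 0.381, 0.574 and 0 in S1, 0.339, 0.240 and 0 in S2, 0, 0.586 and 0 in S3 and 0, 0 and 0 in Lin+ CPM. It was at 0 counts in 10 of 18 libraries and under 10 counts in 14, so its fitted changes carry no size.

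Levels were also compared per length, as mean CPM over 18 libraries per kilobase of the median coding transcript in GENCODE vM1. On this scale Ndufv2 was highest at 96.1, followed by Ndufb10 at 83.8, Ndufa6 at 75.7, Ndufa5 at 66.1 and Ndufv1 at 62.4. Ndufs1, first by CPM, stood at 43.7. Among rows with any count Ndufa4l2 was lowest at 0.180, followed by Ndufb2 at 3.08, the second Ndufb8 row at 3.34 and Ndufa11 at 7.59. Ndufb2, a small membrane arm subunit, measured 7.83, 8.35 and 5.97 in S0-Low, 6.53, 9.54 and 12.2 in S0-Medium, 8.39, 11.8 and 7.48 in S1, 6.90, 9.96 and 3.30 in S2, 9.69, 9.24 and 0 in S3 and 4.14, 5.21 and 7.40 in Lin+ CPM. Its median transcript there is 2413 bases, so its place in this order rests on the annotation. The other places do as well: Ndufv2 was divided by 927 bases, while its longest transcript holds 1540. Ndufa6 has 1 transcript, of 560 bases, and Ndufa11 1 of 2661. The second Ndufb8 row shares 84.6% of its 31-base stretches with other genes. Of the stretches of Ndufa13, the membrane arm subunit listed at 0, 33.4% occur in other genes, mainly Tssk6. The sharing genes with counts hold 451 in all over the 18 libraries, and why Ndufa13 is at 0 was not tested.

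**Figure D3:**
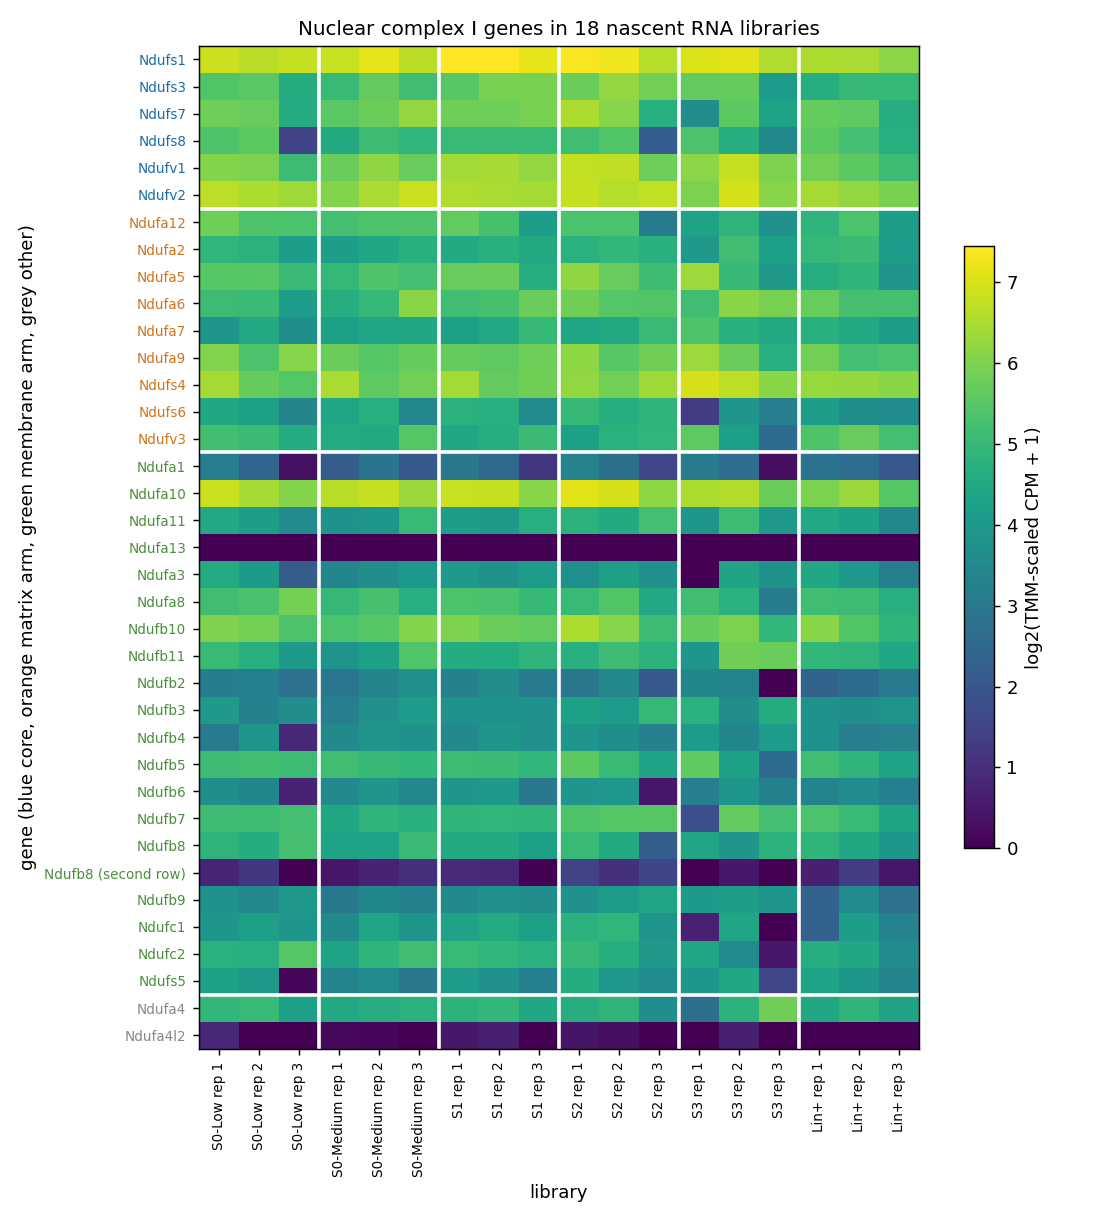
TMM-scaled CPM of 37 of the 38 member rows (rows, grouped by role) in 18 libraries (columns, grouped by population), on a log2 scale after adding 1. Ndufa13 is 0 throughout, Ndufs1, Ndufv2 and Ndufa10 are the brightest rows, and isolated dark cells mark single libraries at or near 0.

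Some members were at or near 0 in a library while another library of the same population held them. The first S3 library held 0 CPM of Ndufa3 and 2.50 of Ndufb7, which measured 49.1 and 36.3 in the other S3 libraries. The third held 0 of Ndufb2 and Ndufc1 and 0.402 of Ndufc2. Ndufc1 measured 0.605, 20.4 and 0 in S3 and 13.9, 17.9 and 14.1 in S0-Low (log2 fold change -1.12 (SE 1.19, edgeR adjusted p = 0.477)), and was called lower once the second S3 library was left out (edgeR adjusted p = 0.00133). Of its 31-base stretches, 7.47% also occur in other genes with counts, 723 in all. In the third S0-Low library, the shallowest, Ndufs5 was 0.0830, Ndufa1 0.249 and Ndufb6 0.664. The number of members under 10 counts was 6 in the third S3 library, 5 in the third S0-Low library, 4 in the first S3 library, and 0 to 2 in each of the others. Genes with any count were also fewest in the first S3 library, 11481, against up to 23393 elsewhere. The part of library complexity in these values was not tested.

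The error followed the count. The 12 members with the lowest mean counts, 5.89 to 581, had a median SE of 1.08 on the log2 scale (S3 against S0-Low), the 13 in the middle 0.59, and the 12 with the highest, 1219.5 to 3890.5, 0.40. The median SE over the 37 members was 0.55, and over all tested genes 1.07.

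**Figure D4:**
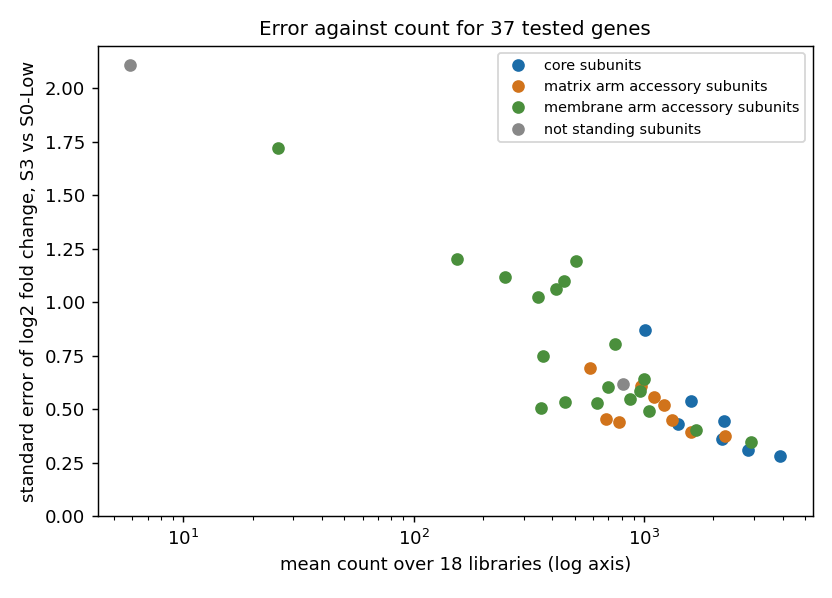
Standard error of the fitted change between S3 and S0-Low on the log2 scale (vertical axis) against the mean count over 18 libraries (log axis), one point a member, coloured by role. The error falls from 2.11 at the lowest count to 0.28 for the best measured member.

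The other comparisons gave 0 calls among the members as well, each beside its own background. In S1 against S0-Low, 2.92% of all genes were called, and the members' median was 0.06 against 0.03 for all genes. In S3 against S2, 9.35% were called, and both medians were -0.31. The members' median lay below that of all genes with at least 10 counts in every library compared (-0.35 against -0.10, 29 members tested) and with no filter (-0.33 against 0). The share called depended on the fit: 0.823% of 11911 genes were called when the 6 libraries compared were fitted alone, and 18.6% with the replicate block. In S3 against S2 all 6 of these core subunits had negative fitted changes, the largest being Ndufs7. So had 28 of the 37 members, and the median of all genes was negative too. Of the members, Ndufs6 (edgeR adjusted p = 0.121) and Ndufs7 (edgeR adjusted p = 0.161) came closest, both with negative changes. DESeq2 called 1 member lower there, Ndufs6, and 12.1% of all genes. By group means of TMM-scaled CPM, 17 of 37 members were highest in S2 and 12 lowest in S3, against 12.9% and 42.1% of all 17755 genes tested over 18 libraries, which counts means and is no test. With library totals the counts were 9 highest in S2 and 27 lowest in S3, against 9.95% and 56.3% of all genes.

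In Lin+ against S0-Low, 0.715% of all genes were called, and the members' median was -0.21 against 0.02 for all genes. The smallest adjusted p of the members was that of Ndufa4l2 (edgeR adjusted p = 0.432), which was at 0 in all Lin+ libraries. In Lin+ against S3, 42.2% of all genes were called, and the members' median was -0.10 against 0.69 for all genes. With at least 10 counts in every library compared it was 0.16 against 0.11 (30 members tested). Of the members, Ndufv1 came closest (log2 fold change -0.82 (SE 0.36, edgeR adjusted p = 0.0730)), and its Lin+ libraries lay below all those of S3. Under the replicate block it was called lower (edgeR adjusted p = 0.0165), as was Ndufs1 (edgeR adjusted p = 0.0426). Ndufs1 and Ndufb9 were also below S3 without overlap, as were 17.3% of all genes. Both Lin+ comparisons use a fit of all 18 libraries, and each shares a population with S3 against S0-Low.

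As a share of all counts, which needs no scaling factor, the 38 rows held 0.145% ± 0.0174 (SD, n = 3) of S0-Low, 0.141% ± 0.0190 of S0-Medium, 0.139% ± 0.00654 of S1, 0.135% ± 0.0357 of S2, 0.0805% ± 0.0253 of S3 and 0.125% ± 0.0200 of Lin+. The 3 S3 libraries held 0.0923%, 0.0977% and 0.0514%, and the 3 S0-Low libraries 0.159%, 0.151% and 0.125%, with no overlap. After TMM the summed CPM of these rows overlapped, at 982 to 1445 in S0-Low and 888 to 1442 in S3, and with library totals the median change of all genes from S0-Low to S3 was -1.36 on the log2 scale. The third S2 library, at 0.0942%, lay within the range of S3. Globin genes held 0.787% to 1.04% of the S3 counts, and leaving them out of the total left the S3 share at 0.0812% ± 0.0256.

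Mitochondrially encoded subunits of the same complex gave calls where the nuclear ones gave none. Of the 6 tested mt-Nd genes, 3 were lower in S3 than in S0-Low and 0 higher, with a median change of -1.28 on the log2 scale, and 5 were lower in S3 than in S2, with a median of -1.78. Of all tested genes, 22.4% and 6.09% were called lower in these comparisons. mt-Nd1, a core subunit at the foot of the membrane arm, measured 1600.3, 2812 and 1956 CPM in S0-Low, 4134, 3694 and 1888 in S2 and 924, 1161 and 341 in S3. The S3 values lay below those of both populations (log2 fold change -1.39 (SE 0.44, edgeR adjusted p = 0.0243) and, against S2, log2 fold change -1.996 (SE 0.45, edgeR adjusted p = 0.0130)). Of all genes, 25.9% lay below S0-Low without overlap, and 14.2% below S2. mt-Nd6, the one encoded on the light strand, measured 155, 216 and 179.5 in S0-Low and 68.1, 67.9 and 73.4 in S3 (log2 fold change -1.397 (SE 0.39, edgeR adjusted p = 0.0132)). mt-Nd4 was lower as well (log2 fold change -1.28 (SE 0.46, edgeR adjusted p = 0.0419)). All 6 fitted changes were negative in both comparisons under every setting tried, but the number called depended on which libraries were kept. Without one library, 1 to 4 were called lower against S0-Low, with 1 left without the second S0-Low or the third S3 library and 2 without the first S3 library. Against S2, 1 to 6 were called, with 1 left without the first or second S2 or the third S3 library, 2 without the first S3 library, and 1 when the 6 libraries compared were fitted alone. Over all genes, leaving out one library gave 14.7% to 21.8% called lower against S0-Low and 2.92% to 9.11% against S2. The fit of the 6 libraries of S3 and S2 alone gave 0.193%. The difference between nuclear and mitochondrial subunits was not tested. The seventh gene, mt-Nd4l, was near 0 and not tested. The mt- share of all counts was 4.24% ± 0.282 in S0-Low and 2.17% ± 0.709 in S3.

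Of 15 complex I assembly factors, 3 were lower in S3 than in S0-Low and 0 higher, with a median of -0.86. This is near the share of all tested genes called lower (22.4%). Acad9, an acyl-CoA dehydrogenase relative needed to build the complex, measured 55.4, 38.3 and 45.4 CPM in S0-Low and 7.34, 20.5 and 4.37 in S3 (log2 fold change -2.11 (SE 0.50, edgeR adjusted p = 0.00480)). Nubpl, which delivers iron-sulphur clusters to it, measured 22.3, 15 and 9.87 and 3.10, 5.63 and 3.79 (log2 fold change -1.91 (SE 0.64, edgeR adjusted p = 0.0308)). Ndufaf6 measured 20.6, 17.8 and 23.5 and 0, 3.42 and 1.09 (log2 fold change -3.76 (SE 1.16, edgeR adjusted p = 0.0205)). The S3 libraries lay below those of S0-Low for all 3 genes, as they did for 25.9% of all genes, and without the third S3 library 1 of the list was called.

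The other complexes were compared in S3 against S0-Low, where 13.4% of all tested genes were higher and 22.4% lower. Complex II had 0 higher and 1 lower of 4 (Sdhb, the iron-sulphur subunit, log2 fold change -0.99 (SE 0.37, edgeR adjusted p = 0.0474)), complexes III and IV had 0 of 9 and 0 of 10, and complex V had 1 higher and 1 lower of 16. The rise was Atpif1, which inhibits ATP hydrolysis by complex V (log2 fold change 1.46 (SE 0.33, edgeR adjusted p = 0.00353)), and the fall Atp5c1, its central stalk subunit (log2 fold change -0.97 (SE 0.27, edgeR adjusted p = 0.0127)). With library totals Atpif1 was not called (edgeR adjusted p = 0.142), and without the third S3 library Sdhb was not (edgeR adjusted p = 0.138). The medians were -0.78, 0.07, 0.02 and -0.20 for complexes II to V, against -0.54 for all tested genes.

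Of 12 regulators of mitochondrial biogenesis, 2 were higher and 5 lower in S3, against 13.4% and 22.4% of all tested genes. Nrf1, whose motif is shown above, measured 182, 133 and 129.6 CPM in S0-Low and 463, 335 and 372 in S3 (log2 fold change 1.396 (SE 0.29, edgeR adjusted p = 0.00170)), and Yy1 was the other rise (log2 fold change 0.86 (SE 0.28, edgeR adjusted p = 0.0253)). With library totals neither rise was called (edgeR adjusted p = 0.0933 and edgeR adjusted p = 0.981). Ppargc1b, a coactivator of these factors, measured 113, 64.9 and 15.2 and 2.50, 0.0901 and 0 (log2 fold change -6.31 (SE 1.30, edgeR adjusted p = 0.00175)). Myc, a growth regulator, measured 683, 921 and 559 and 62.1, 101 and 32.6 (log2 fold change -3.47 (SE 0.52, edgeR adjusted p = 0.000171)). Ppargc1a was also called lower, but its S0-Low values were 0.620, 0.324 and 10.1 CPM, of which the third stood far above the others, and it was not called without that library (edgeR adjusted p = 0.208).

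**Figure D5:**
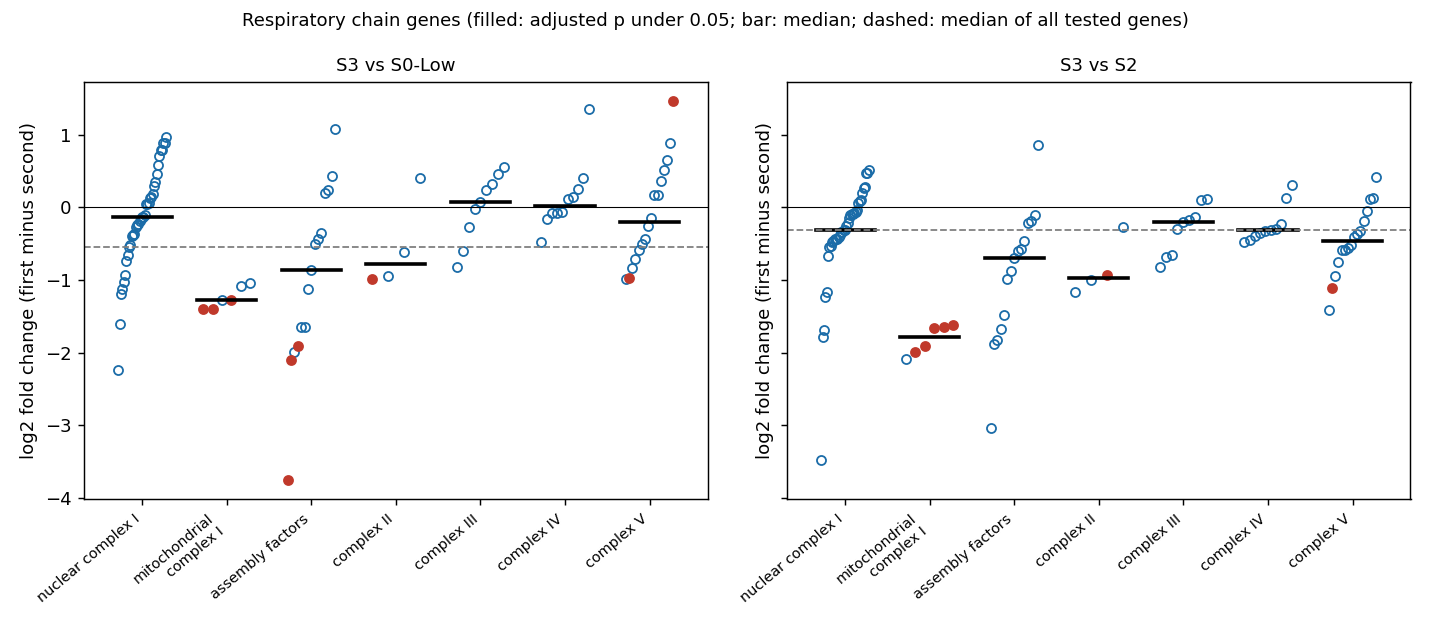
Fitted log2 fold change of each gene of the respiratory chain in S3 minus S0-Low (left) and S3 minus S2 (right), filled where the adjusted p is under 0.05, with the median of each list as a bar and that of all tested genes dashed. Nuclear complex I holds no filled point in either panel, and mitochondrial complex I holds 3 and 5.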

How the data were processed

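Nascent RNA was purified after 4sU labelling, and libraries came from a kit that keeps strand, amplified over 14 PCR cycles with no UMIs. Per the labels and the submitters' processing notes, the authors counted reads with kallisto 0.43.0 (build named: GRCm38) and deposited counts per gene, not normalized or pooled. Kallisto shares reads among transcripts that hold the same sequence. Symbols came from a names table (32651 of 54232 identifiers). Counts were tested in R 4.3.3 with edgeR 4.0.16 (TMM, filterByExpr, two-sided quasi-likelihood test, Benjamini-Hochberg over all tested genes, threshold 0.05), over 15 erythroid libraries (16555 genes) or all 18 (17755 genes). DESeq2 1.42.0 was an alternative, with other scalings, filters, the replicate number as a block and each library left out. Members and lists were chosen with earlier results of these data known. Values in every library are given for 6 core subunits (1 member is counted but not reported here), members at the ends of the order per length and symbols outside the complex; other named members were chosen after their values were seen. No pair of replicates agreed within sampling noise (chi-square per degree of freedom 89.4 to 503). Same-numbered libraries deviated together with r of 0.29 to 0.34 for S1 and S0-Low, 0.17 to 0.31 for S3 and S2 and 0.19 to 0.30 for Lin+ and S0-Low, so these were also fitted as pairs, with 0 members called. Intervals cover the spread between libraries. Fits were tested on simulated counts.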

Additional observations from a re-analysis of the deposited data

How the results depend on the processing

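Counts of called members depended on the settings. In S3 against S0-Low the members called lower numbered 2 under DESeq2, 2 with at least 10 counts in every library compared (28 members tested), 8 with library totals, and 1 with the replicate block (29.1%, 19.3%, 37.6% and 26.4% of all genes), which also gave 1 higher (15.9%). In S3 against S2 those called lower numbered 1 under DESeq2 and 2 with library totals (13.7% of all genes). In Lin+ against S3 those called higher numbered 1 under DESeq2, 1 with at least 10 counts, 3 with library totals and 1 with the replicate block (33.2%, 21.1%, 40.1% and 32.1% of all genes), and those called lower 1 under DESeq2 and 2 with the block (14.4% and 16%). Library totals moved the medians to -0.95 in S3 against S0-Low, -0.76 in S3 against S2 and 0.69 in Lin+ against S3. In S1 and in Lin+ against S0-Low every setting gave 0 calls.

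Leaving out one library gave 0 to 1 lower in S3 against S0-Low, 0 to 3 lower in S3 against S2, and 0 to 3 higher and 0 to 1 lower in Lin+ against S3 (14.7% to 21.8%, 2.92% to 9.11%, 20% to 25.9% and 10.6% to 13% of all genes). Leaving out the second S3 library gave 3 lower in S3 against S2 (Ndufc1, Ndufs6 and Ndufs7; 9.11% of all genes) and 3 higher in Lin+ against S3 (25.9%). The medians ran from -0.39 to 0.09 in S3 against S0-Low, -0.15 to 0.25 in S1 against S0-Low, -0.52 to -0.08 in S3 against S2, -0.34 to 0.02 in Lin+ against S0-Low and -0.29 to 0.23 in Lin+ against S3. Without the third S3 library the median of S3 against S0-Low was 0.09. Leaving out replicate 3 of every population, a choice made after seeing the data, gave 1 lower in S3 against S0-Low (Ndufa12; 24% of all genes) and 1 lower in Lin+ against S3 (Ndufv1; 14.2%). These libraries held the fewest detected genes in 4 of the 6 populations. Leaving mt- genes out of the total moved the members' share in S1 to 0.149%. The cause of these changes was not tested.

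The main fits took no libraries as pairs, and the replicate number as a block was an alternative in every comparison. The block called 42.4% of all genes in S3 against S0-Low and 48.1% in Lin+ against S3, beside 35.8% and 42.2% in the main fits. In these comparisons not every same-numbered pair had r over 0.1 (r of 0.08 to 0.13 and 0.09 to 0.16), although 18 of 18 libraries correlated best with their own number. The labels do not say what a number stands for. Members with few counts, drop-outs in single libraries and 3 libraries a group limit what could be detected.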
